A study of Mus musculus with 12 samples.

Results

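Wild-type (WT) mouse bone marrow macrophages kept in LPS for 4 h were compared with WT macrophages kept in LPS for 1 h, on 2 arrays a group, which is 4 of the 12 arrays of the study. The members were the arrays whose titles give those conditions, and every value below is a 4 h level against a 1 h level. The study measured RNA from WT macrophages and from IRAK4 kinase-dead (KD) macrophages, whose mice carry IRAK4 without kinase activity, each at 4 h of LPS, at 1 h of LPS and without LPS, with 2 arrays in each of the 6 groups. LPS was given at 1 µg/ml, the unstimulated cells were kept for 4 h, and all cells grew in serum and in medium conditioned by L-929 cells, a fibroblast line that secretes the macrophage growth factor M-CSF. The 2 arrays of a group are biological replicates per the series' design text, which does not say whether they came from separate animals, so p-values measure the spread between these arrays. The 4 h and 1 h cells differ in the length of LPS exposure and in the time of harvest, and these cannot be told apart.

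LPS, from the outer membrane of Gram-negative bacteria, binds Toll-like receptor 4 with its partners MD-2 and CD14. One arm of signalling, through MyD88, IRAK4 and IRAK1, activates NF-κB and MAP kinases, and the other, through TRIF, activates IRF3 and the production of interferon-β. Immediate early genes such as Fos and Egr1 are switched on without new protein synthesis and give short-lived mRNAs, whereas many later genes need new transcription factors, opened chromatin or secreted interferon acting back on the cell.

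The promoters of genes from both sides of the comparison are shown first, because the groups described below are known targets of different transcription factors. Sequences are from RefSeq, build GRCm38.p6, 5′ to 3′ on the strand of the gene, and each ends 1 base before the annotated start. Capitals mark matches to the motifs searched on both strands of the 250 bases before the start. These were the core of the interferon-stimulated response element (ISRE; GAAA and GAAA with any pair of bases between them), the cyclic AMP response element (TGACGTCA), the AP-1 site (TGANTCA), the CArG box bound by serum response factor, and the κB site bound by NF-κB. Positions count back from the start. Dusp5, which encodes a nuclear phosphatase of ERK and fell between 1 h and 4 h, carries adjoining CArG boxes at -82 to -73 and -72 to -63 (chr19:53529025-53529144 on the plus strand). Ifit1 and Gbp3, interferon-induced genes that rose, carry a pair of ISRE cores each, which overlap in Gbp3 (chr19:34640769-34640888 on the plus strand; chr3:142559924-142560043 on the plus strand). Cxcl10, a chemokine gene that rose, carries an ISRE core, an AP-1 site and κB sites, of which 2 matches overlap (chr5:92348890-92349109 on the minus strand). Il6, which encodes interleukin-6 and rose, carries a κB site at -44 to -35 (chr5:30012994-30013113 on the plus strand), and an AP-1 site at -249 to -243 lies outside the stretch printed. Nfkb2, which encodes the p100 precursor of an NF-κB subunit and rose, carries κB sites just before the first of its 3 annotated starts (chr19:46304617-46304736 on the plus strand). Gbp3 has 2 annotated starts, and the first is shown.
Dusp5: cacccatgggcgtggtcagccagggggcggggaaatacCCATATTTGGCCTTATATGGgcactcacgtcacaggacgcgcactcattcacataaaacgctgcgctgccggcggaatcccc
Ifit1: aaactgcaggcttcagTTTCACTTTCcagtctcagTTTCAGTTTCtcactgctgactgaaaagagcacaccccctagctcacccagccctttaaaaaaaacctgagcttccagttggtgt
Gbp3: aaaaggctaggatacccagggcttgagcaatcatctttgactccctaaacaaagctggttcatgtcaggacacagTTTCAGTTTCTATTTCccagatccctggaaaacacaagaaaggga
Cxcl10: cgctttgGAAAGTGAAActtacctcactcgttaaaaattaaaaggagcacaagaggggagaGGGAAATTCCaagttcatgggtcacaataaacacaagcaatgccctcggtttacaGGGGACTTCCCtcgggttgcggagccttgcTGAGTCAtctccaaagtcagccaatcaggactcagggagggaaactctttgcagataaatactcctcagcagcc
Il6: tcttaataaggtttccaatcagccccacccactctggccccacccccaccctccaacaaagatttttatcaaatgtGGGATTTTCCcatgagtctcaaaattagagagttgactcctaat
Nfkb2: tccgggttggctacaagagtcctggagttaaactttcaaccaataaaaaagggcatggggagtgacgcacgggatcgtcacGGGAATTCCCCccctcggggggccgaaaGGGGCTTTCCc
A match is a description of the letters and not a shown binding site. The genes printed are picked examples that all hold matches, and Dusp5 is the only one of them that fell. Other genes named below differed. In the 250 bases searched, Fos, which fell, held a κB match and no CArG box, and Ifit2, which rose, held a κB match and no ISRE core. Bases farther from the start were not searched, so a match there would have been missed. Oas3, which fell, held an ISRE core.

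Signals were the deposited MAS5 values, a linear intensity for each probe set, the group of short probes that reads 1 transcript. Array medians were 20.4 and 18.9 at 4 h and 21.6 and 21.3 at 1 h, at the same trimmed mean of 150. Spearman's correlation across all 45101 probe sets, weak ones included, was 0.898 between the 4 h replicates and 0.895 between the 1 h replicates. It was 0.87 to 0.896 between arrays of different times. The macrophage markers Csf1r (4274 to 5023), Lyz2 (5843 to 7116.5), Cd68 (3054 to 3665) and Adgre1 (2128.5 to 2716) were high on all 4 arrays, while the probe sets for C1qa (39.5 to 46) and Itgam (11.8 to 35.4) were low. Cd3e, Ms4a1, Flt3, Elane and Alas2, which define T cells, B cells, dendritic cell precursors, neutrophil precursors and erythroid cells, were at 12.9 or below. Other markers on those lists were brighter. S100a8 of the neutrophil list was at 742 to 902 and Tfrc of the erythroid list at 2466 to 2686.5. Ebf1 of the B cell list was at 62.6 to 88.2 and Zbtb46 of the dendritic cell list at 16 to 67. The stromal gene Col1a1 was at 807 to 1420, and the summed signal of 15 stromal markers was 3958 to 4164 at 4 h and 4680 to 4764 at 1 h. Its part in the genes that fell was not tested. No probe set for the targeted gene, Irak4, was analysed here.

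Changes are differences of log2(signal + 4.4), 4 h minus 1 h, with the standard error (SE) of a limma fit to all 12 arrays. The constant 4.4 understates the change of weak genes. A gene was called when its Benjamini-Hochberg adjusted p was under 0.05. Of 12914 genes, 1009 (7.81%) were called higher at 4 h and 1432 (11.1%) lower, and 381 (2.95%) and 486 (3.76%) of all genes did so by at least 2-fold. Among 27931 probe sets, 4423 (15.8%) were called, 1982 (7.10%) higher and 2441 (8.74%) lower. The median log2 change over all tested genes was -0.119, and that over probe sets was -0.0793. When arrays were scaled to the same median signal, the probe set median became 0.0393 and the calls became 2733 higher and 1554 lower, so which direction had more calls depended on the scaling. The count was 2741 without replicate 1 of the 4 h group and 2950 without replicate 2 of that group. In bulk RNA, fewer cells of a type and less RNA per cell cannot be told apart.

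A promoter sequence was found for 10403 of the 12914 genes tested, and the κB site matched 10.9% of them, the ISRE core 3.24%, the AP-1 site 5.96%, the cyclic AMP response element 2.89% and the CArG box 1.44%. Of the 292 genes with a sequence that rose at least 2-fold at 4 h, 53 (18.2%) held a κB site and 25 (8.56%) an ISRE core. Of the 383 such genes that fell at least 2-fold, 46 (12%) held a κB site and 10 (2.61%) an ISRE core. By list, the κB site was present in 9 of 19 NF-κB genes, 7 of 17 cytokine genes and 6 of 18 chemokine genes, and also in 6 of 20 immediate early genes, the list in which most calls were lower. The ISRE core was present in 14 of 41 interferon-induced genes, namely in 8 of the 25 that rose and in 6 of the 16 that did not. CArG boxes were found in 2 of 20 immediate early genes and in 7 of the 383 genes that fell at least 2-fold.

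The largest increases joined secreted factors, surface receptors and interferon-induced genes. Itgb8, the integrin chain that activates latent TGF-β, had signals of 413 and 464 at 4 h, against 3.5 and 11 at 1 h and 20.5 and 14.4 in unstimulated cells, and its change was 5.33 ± 0.47. Il6 had 1722 and 1779 at 4 h, against 40.6 and 63.2 at 1 h, and rose by 4.99 ± 0.35 (limma adjusted p = 8.71e-09). Adamts4, a protease of cartilage matrix, had 3731 and 3104 at 4 h and 100 and 180 at 1 h. In each of these genes both 4 h arrays stood above both 1 h arrays by an order of magnitude or more. Cd40, the receptor by which T cells license antigen-presenting cells, had 2929 and 3053 at 4 h, against 142.5 and 197 at 1 h. Shisa3 (211 and 263 at 4 h, 0.6 and 3.9 at 1 h) and Calhm6 (162.5 and 200 and 22.8 and 4) were near the constant at 1 h, as was Itgb8, so the sizes of these changes rest on it. Over the alternatives the change of Itgb8 ran between 3.92 and 5.90. Rasgrp1, an exchange factor for Ras, rose by 4.97 ± 0.65, but 2 other probe sets of the gene gave -0.62 and -0.16 and were not called. Hivep3, a zinc finger transcription factor, rose by 3.44 ± 0.14, and its other probe sets were not called. Foxp4 (3.96 ± 0.35), a forkhead transcription factor, and Trim36 (3.39 ± 0.29), a ubiquitin ligase, were also among the 15 largest increases. So was Nos2 (3.42 ± 0.65), the inducible nitric oxide synthase, but it lay below the constant at 1 h and its change ran between 1.94 and 4.18 over the alternatives, so its size and rank rest on the constant.

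The largest decreases were led by immediate early genes. Fos, a subunit of AP-1, had signals of 163 and 136 at 4 h, against 3230 and 3558 at 1 h, and fell by 4.47 ± 0.12 (limma adjusted p = 2.92e-14). Dusp5 had 140 and 155 at 4 h and 1727.5 and 1938 at 1 h, and fell by 3.60 ± 0.15. Averaged over the 3 h between the harvests, the signal of Fos halved every 40.3 min and that of Dusp5 every 50 min, on the log2(signal + 4.4) scale. These rates are net of any transcription that went on and are not half-lives. Beside the immediate early genes stood Tiam1, an exchange factor for Rac (fell by 2.69 ± 0.17), Marchf1, a ubiquitin ligase that removes MHC class II from the surface (2.78 ± 0.20), Rab7b (3.04 ± 0.46), a small GTPase of vesicle transport, and Sox7, a transcription factor (2.82 ± 0.34). Rab39, another GTPase of vesicle transport, fell by 2.58 ± 0.27. Rab7b had 0.8 and 13.3 at 4 h and 47.5 and 115 at 1 h, with a wide spread between replicates. For Marchf1 and Dtl another probe set had the other sign (0.23 and 0.03) and was not called.

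**Figure D1:**
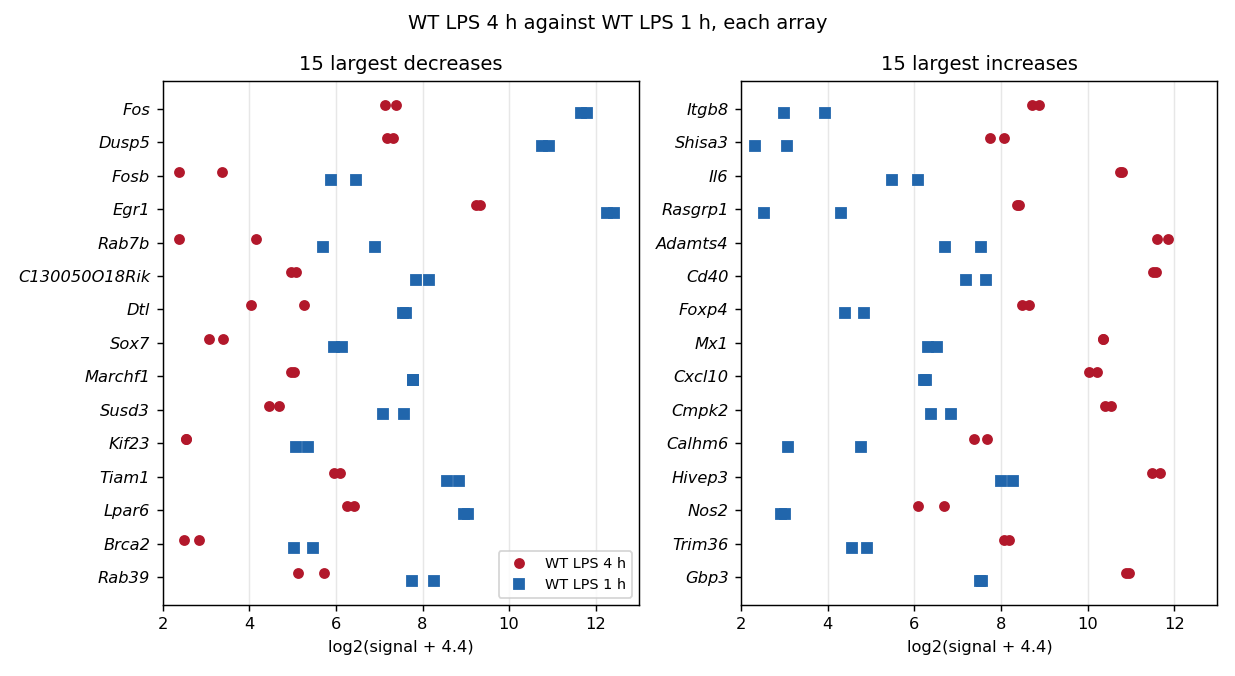
Signal on each WT LPS 4 h array (circles) and each WT LPS 1 h array (squares), as log2(signal + 4.4), for the 15 genes with the largest decreases and the 15 with the largest increases among called genes with no overlap between the groups. Fos and Dusp5 lead the decreases and Itgb8, Shisa3 and Il6 the increases, and replicates lie farther apart where a signal is weak, as in Rab7b at 4 h.

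Of 28 immediate early transcription factor genes, 15 (53.6%) fell and 1 rose, with a median change of -0.97. The zinc finger gene Egr1 had 642 and 596 at 4 h against 4917 and 5511 at 1 h, a fall of 3.06 ± 0.16, and Egr3 (2.30 ± 0.22), the orphan nuclear receptor genes Nr4a1 (2.38 ± 0.44) and Nr4a2 (1.75 ± 0.22), and Csrnp1 (1.55 ± 0.20) fell with it. Fosb had 0.8 and 5.9 at 4 h, around the constant, and 54.9 and 84.5 at 1 h. The falling genes had different starting points. Signals of Egr1 were 438 and 467 without LPS, 4917 and 5511 at 1 h and 642 and 596 at 4 h, and the 4 h level differed from the unstimulated one by 0.45 ± 0.16. Fos instead went below its unstimulated level, with 1117 and 1359.5 without LPS and a 4 h level lower by 3.01 ± 0.12. Jun, the AP-1 partner of Fos, had 1912 and 1862 without LPS, 2345 and 2406.5 at 1 h and 634 and 679.9 at 4 h, and fell by 1.85 ± 0.09 between 1 h and 4 h. Myc (1.23 ± 0.26), Klf4 (1.30 ± 0.16) and Ier3 (0.66 ± 0.15) were called lower as well.

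Not every early gene declined. Atf3, a repressor of inflammatory genes, had 1450.1 and 1433 at 4 h and 1458 and 1649.7 at 1 h, a change of -0.10 ± 0.10. Junb gave -0.76 ± 0.30 and Maff 0.15 ± 0.30, and neither was called. Nr4a3 was the member called higher, with 430.5 and 394.5 at 4 h and 67.7 and 100.2 at 1 h (2.26 ± 0.40), while its second probe set gave -0.99 and was not called. Its paralogue Nr4a1 had 13.5 and 21.7 at 4 h and 97.2 and 121 at 1 h, so the 2 genes stood on opposite sides.

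Genes that dampen MAP kinase signalling were mixed, with 9 of 24 lower, 3 higher and a median of -0.44. Dusp1, the phosphatase of p38 and JNK, fell by 1.55 ± 0.18, with 2211 and 1263 at 4 h and 4530.1 and 5296 at 1 h. Dusp6, a phosphatase of cytoplasmic ERK, had 1077.5 and 1135 without LPS, 654 and 623 at 1 h and 225 and 297 at 4 h, and fell by 1.29 ± 0.13 in the later interval. Spry2 (1.53 ± 0.12) and the G protein regulator Rgs2 (2.51 ± 0.10) fell, whereas Spry4 (1.48 ± 0.30), Spred1 (0.86 ± 0.08) and Gadd45b (1.06 ± 0.13) rose. Socs3, an inhibitor of cytokine receptors, stood at 175 and 118 at 4 h and 182 and 137 at 1 h and was not called (-0.13 ± 0.34).

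Factors that destroy cytokine mRNA divided by family on the probe set read for each gene. Of 23, 7 were higher and 5 lower, and their median of -0.04 took the other sign (0.09) when arrays were scaled to the same median. The 3 tristetraprolin family genes on the list all fell. Zfp36, tristetraprolin itself, had 975 and 961 at 4 h and 2756 and 2490.4 at 1 h (1.43 ± 0.12), against 253 and 312 without LPS. Zfp36l1 fell by 1.02 ± 0.11 and Zfp36l2 by 0.97 ± 0.10. The antiproliferative genes Btg1 (1.23 ± 0.17) and Tob1 (0.80 ± 0.12), whose proteins recruit deadenylases, fell too. The Roquin genes Rc3h1 (0.73 ± 0.14) and Rc3h2 (1.04 ± 0.13), the decapping genes Dcp1a (0.73 ± 0.14) and Dcp2 (1.04 ± 0.17), and Zc3h12c (1.59 ± 0.20), a relative of Regnase-1, rose. Zc3h12a, Regnase-1, was not called (0.46 ± 0.22). Some other probe sets of Zfp36l1, Zfp36l2, Btg1, Rc3h2 and Dcp1a were not called. Among these the sign was opposite in Btg1 (0.04), Rc3h2 (-0.21) and Dcp1a (-0.12).

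**Figure D2:**
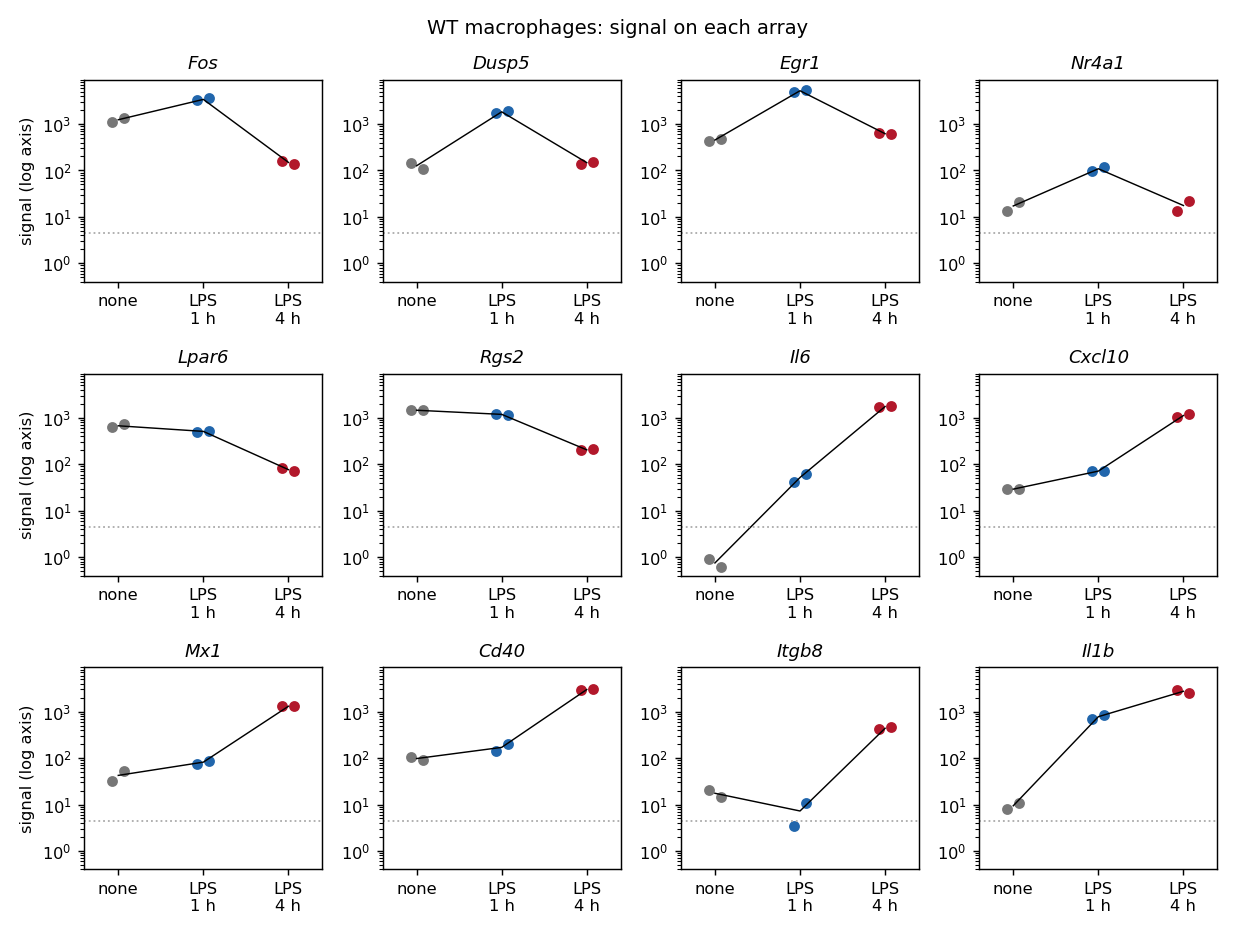
Signal on each WT array (log axis) for 12 genes without LPS, at 1 h and at 4 h of LPS, with lines through the group means and a dotted line at the constant of 4.4. Fos, Dusp5, Egr1 and Nr4a1 peak at 1 h, Lpar6 and Rgs2 stay high at 1 h and are low at 4 h, and Il6, Cxcl10, Mx1, Cd40, Itgb8 and Il1b are highest at 4 h.

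A second kind of decrease concerned genes that were already high without LPS and still high at 1 h. Lpar6, a receptor for lysophosphatidic acid, had signals of 628 and 721 without LPS, 495 and 526 at 1 h and 81.1 and 72.2 at 4 h. Its fall from the 1 h level was 2.67 ± 0.13. Rgs2 had 1469.8 and 1445.5, 1202 and 1173 and 198 and 211 at the same times. Cd300lb, an activating receptor of myeloid cells, had 1816 and 1728, 1585 and 1519 and 328.5 and 262. In all of them the 1 h arrays lay nearer to the unstimulated arrays than to the 4 h arrays. Among 28 genes of macrophage identity and surface receptors, 11 (39.3%) were lower and 4 higher, with a median of -0.34. Mertk, a receptor for apoptotic cells, had 51.2 and 43.5 at 4 h and 186 and 155 at 1 h (1.76 ± 0.24). P2ry6, a receptor for UDP (1.75 ± 0.13), the scavenger receptor gene Stab1 (1.17 ± 0.14), and the transcription factor genes Maf (1.11 ± 0.09) and Cebpa (1.05 ± 0.12) fell as well. Cnr2 and Cd163 were called lower from signals of 2 and 2.6 and of 1.5 and 1.8 at 4 h, below the constant, and 32.6 and 17.9 and 19.2 and 20.3 at 1 h. The transcription factor genes Cebpd (2.55 ± 0.18) and Tfec (2.24 ± 0.16) rose. Csf1r (-0.07 ± 0.10), Adgre1 (0.21 ± 0.09) and Spi1 (0.28 ± 0.16), which encodes PU.1, were not called. The number of members called higher was 2 without replicate 1 of either group.

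Of 29 DNA replication genes, 12 (41.4%) fell, 0 rose and 17 were not called (median -0.66). Of 23 mitosis genes, 8 (34.8%) fell, 1 rose and 14 were not called (median -0.66). Gmnn, the inhibitor of replication licensing, had 56.8 and 78.1 at 4 h and 184.5 and 213 at 1 h (1.51 ± 0.19), and Gins1 (1.26 ± 0.20), Mcm6 (0.95 ± 0.17) and E2f2 (2.22 ± 0.53) fell. The call of E2f2 rested on signals of 7.6 and 0.5 at 4 h and 43.4 and 22.3 at 1 h. Cdc25b, a phosphatase that starts mitosis, fell by 1.54 ± 0.20. Kif23, a motor of cytokinesis, had 1.4 and 1.4 at 4 h, below the constant, and 29.5 and 36.8 at 1 h. Its change ran between -3.82 and -1.19 over the alternatives, and its call was lost without a trend in the variance prior. The replication count was 7 without replicate 1 of the 4 h group or without replicate 2 of the 1 h group. The mitosis count was 2 of 23 without either of these arrays, a share no higher than the 11.1% of all genes, 4 without replicate 1 of the 1 h group and 5 without replicate 2 of the 4 h group. The count of mitosis genes called higher was 2 without either WT unstimulated array. Mki67 was not called (0.63 ± 0.24).

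Ccnd1, cyclin D1, was the clearest cell cycle gene on the probe sets read. It had 325 and 314 at 4 h and 1407 and 1388 at 1 h, a fall of 2.11 ± 0.10 (limma adjusted p = 5.42e-11). Another probe set of Ccnd1 was not called. Of 10 genes of D cyclins and CDK inhibitors, 3 fell and 2 rose. Ccnd2 rose by 0.55 ± 0.15 on the probe set read, but some others were not called, with -0.22 and -0.033 among them. The change of Ccnd2 ran between 0.36 and 0.73 over the alternatives. Ccnd3 fell by 0.85 ± 0.25 and Cdkn2c by 1.07 ± 0.30, while Cdkn1a, the inhibitor p21, rose by 0.80 ± 0.09. Without replicate 2 of the 1 h group, 1 was lower and 1 higher, and without replicate 1 of either group, 1 was higher. The stromal genes that fell beside these groups were Col1a2 (0.95 ± 0.18), Col1a1 (0.64 ± 0.14), Thbs2 (0.69 ± 0.18) and Col3a1 (0.91 ± 0.30), which is 4 of 14 stromal markers, with Tagln higher (0.53 ± 0.15). Some other probe sets of Col1a2, Col1a1, Thbs2 and Col3a1 were not called. The change of Col3a1 ran between -1.21 and -0.605, and its call was lost under 6 of 11 alternatives that did not leave out single arrays. Without replicate 1 of the 4 h group or either 1 h array, 2 stromal markers were lower, and Tagln was not called without replicate 1 of either group. Of the markers of other cells, 0 of 4 for T and NK cells, 0 of 3 for B cells, 0 of 3 for neutrophils and their precursors, 0 of 3 for erythroid cells and 0 of 3 for mast cells and basophils were called. Of 3 dendritic cell markers, 1 was called, Zbtb46 (1.33 ± 0.35), and it was lost without replicate 2 of either group.

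Of 25 cytokine genes, 11 (44%) were higher at 4 h than at 1 h, 2 were lower and 12 were not called, with a median of 0.88. The interleukin-1 genes Il1b and Il1a were induced by 1 h and higher at 4 h. Il1b had 8 and 10.8 without LPS, 700.3 and 857 at 1 h and 2940.5 and 2547 at 4 h, and Il1a had 9.6 and 10.3, 219 and 208 and 1395 and 1474. Il6, Csf2, the granulocyte-macrophage growth factor (2.88 ± 0.38), Edn1, endothelin-1 (3.29 ± 0.59), Il15 (2.44 ± 0.20) and Lif (2.29 ± 0.27) gained most of their signal after 1 h. Csf2 had 317 and 343 at 4 h and 44.7 and 37.3 at 1 h, and Edn1 had 190.3 and 177 and 27.9 and 7. Tnf had most of its 4 h signal by 1 h, with 4868 and 4727 at 4 h and 3127.5 and 3675 at 1 h, a rise of 0.50 ± 0.14. The members that fell were Osm, oncostatin M, with 34.3 and 64.4 at 4 h and 190 and 248 at 1 h (2.10 ± 0.33), and Tnfsf9, the ligand of 4-1BB (0.75 ± 0.24), whose call was lost without 5 of the 12 arrays in turn. The lower count was 1 without any of the 4 arrays and without replicate 2 of the KD LPS 1 h group. Il10 stood at 95.1 and 122 at 4 h and 288 and 315 at 1 h and missed the threshold (-1.45 ± 0.51, adjusted p = 0.0603). Ifnb1, interferon-β, had 19 and 32.7 at 4 h and 18.6 and 15.7 at 1 h and was not called (0.46 ± 0.68).

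Chemokine genes had 14 of 25 (56%) higher, 1 lower and a median of 1.22. The ligands of CXCR3, which draws activated T cells, all rose, namely Cxcl10 (3.89 ± 0.20), Cxcl11 (3.18 ± 0.45) and Cxcl9 (2.61 ± 0.65). Cxcl10 had 1049 and 1194 at 4 h and 72.1 and 70.3 at 1 h. Cxcl9 was weak, with 71.7 and 87.5 at 4 h and 8.3 and 10.4 at 1 h, and lost its call without 3 of the 12 arrays in turn. The CCR4 ligands Ccl17 (2.26 ± 0.63) and Ccl22 (2.26 ± 0.63) rose as well, with calls lost without 3 and 4 arrays. The neutrophil chemokines gave another picture. Cxcl1 had 6302 and 5896 at 4 h and 5054 and 5253 at 1 h (0.24 ± 0.14), and Cxcl2 had 6133 and 5608 and 5185 and 5176 (0.18 ± 0.13), so both were near their 4 h level by 1 h and were not called. Cxcl5 (1.48 ± 0.21) and Cxcl3 (1.88 ± 0.16) rose. Ccl5 (1.22 ± 0.09), Ccl2 (1.29 ± 0.11), Ccl7 (1.95 ± 0.21) and Ccl4 (2.02 ± 0.13), which attract monocytes and T cells, rose, and Ccl6 fell by 0.37 ± 0.08.

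Of 53 interferon-induced genes, 31 (58.5%) were higher and 4 lower, with a median of 0.94. Mx1, an antiviral GTPase, had 1307 and 1304.5 at 4 h and 75.6 and 87.8 at 1 h, a rise of 3.93 ± 0.22 (limma adjusted p = 3.17e-10). Cmpk2 (3.85 ± 0.20) and its neighbour on the chromosome Rsad2, viperin (2.93 ± 0.11), rose, with Rsad2 at 6022 and 5301 at 4 h and 693 and 784 at 1 h. Ifit1 (3.00 ± 0.14) and Ifit2 (3.04 ± 0.14), which bind foreign RNA, and the guanylate-binding protein genes Gbp3 (3.39 ± 0.16), Gbp7 (2.94 ± 0.12) and Gbp2 (2.87 ± 0.15), which attack vacuoles of pathogens, all rose about as much. Ifih1, the RNA sensor MDA5, rose by 2.36 ± 0.12 and Irf1 by 0.93 ± 0.17. Other members of the list did not follow. Oas3, of the oligoadenylate synthase family, had 396.5 and 442 at 4 h and 1054 and 691 at 1 h and fell by 1.02 ± 0.16, while Oasl1 rose by 2.86 ± 0.14. Irf7 (-0.16 ± 0.21), Bst2 (-0.10 ± 0.20) and Stat2 (0.44 ± 0.33) were not called. Irf9 (0.38 ± 0.12) and Trim25 (0.37 ± 0.09) were lower by small amounts, with calls lost without 7 and 2 arrays in turn. Samhd1 was lower on its brightest probe set (0.53 ± 0.12) and higher on a dim one (2.23, adjusted p = 0.0391). The lower count was 1 without replicate 2 of the 1 h group and 2 without replicate 2 of the 4 h group.

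**Figure D3:**
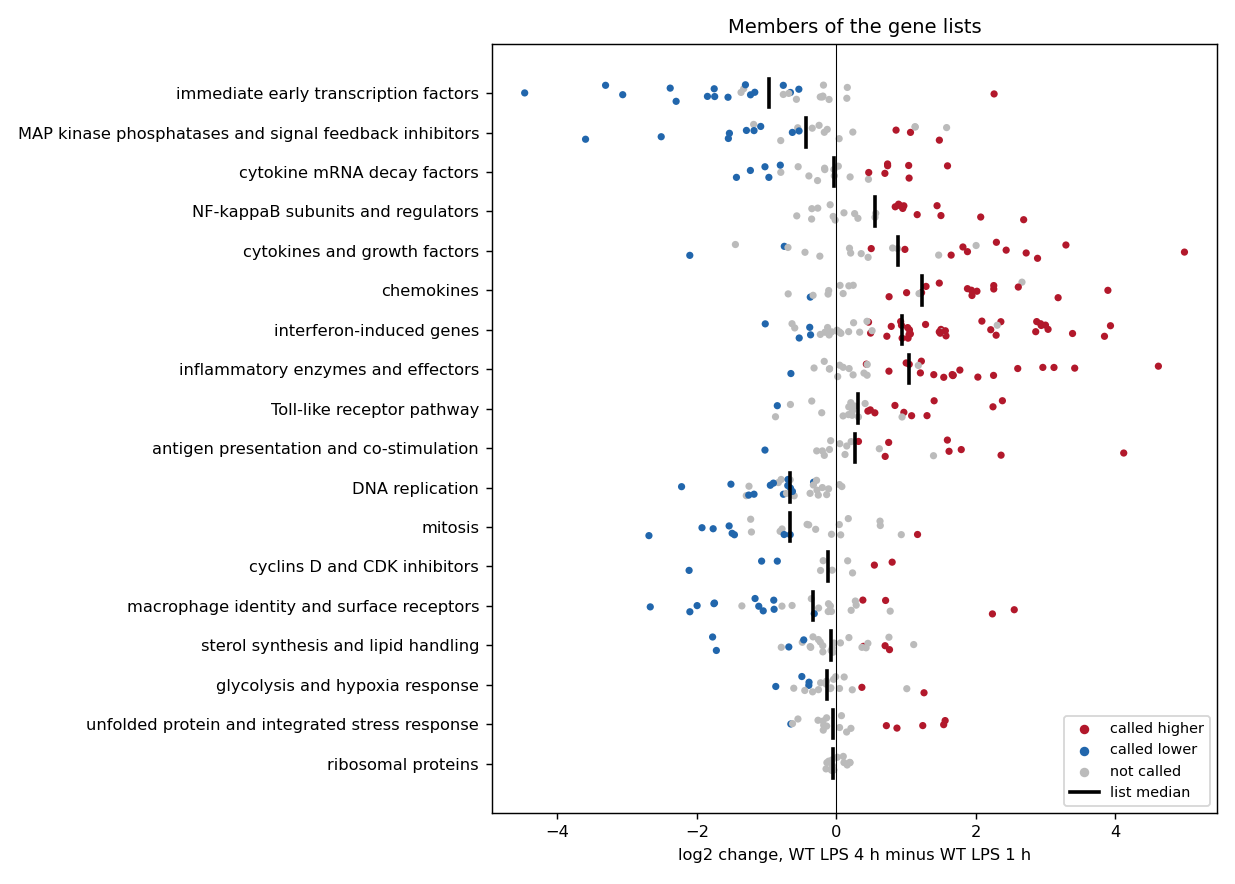
Log2 change, WT LPS 4 h minus WT LPS 1 h, of each tested member of 18 gene lists, coloured by call, with a bar at the median of each list. Immediate early genes and proliferation genes lie mostly left of 0, and chemokine, interferon-induced and inflammatory effector genes mostly right of it, while ribosomal protein genes stay within 0.2 of 0.

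Inflammatory enzymes and effectors had 19 of 33 (57.6%) higher and 1 lower, with a median of 1.04. Slc7a2, an arginine transporter, had 2644 and 2511 at 4 h and 277.5 and 308 at 1 h (3.12 ± 0.15), and Nos2, which uses arginine, had 98.1 and 63.3 and 3.1 and 3.7. Ptges, which makes prostaglandin E, had 1963 and 1791 at 4 h and 203 and 277 at 1 h (2.96 ± 0.16), whereas Ptgs2, the cyclooxygenase before it in the pathway, had 7091 and 6014 and 4750.3 and 4944 and rose by 0.43 ± 0.09. The inflammasome sensor gene Nlrp3 rose by 2.03 ± 0.20, Ch25h, cholesterol 25-hydroxylase, by 2.25 ± 0.17, and Acod1, which makes itaconate, by 0.75 ± 0.09. Hmox1, heme oxygenase, fell by 0.65 ± 0.10.

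NF-κB subunits and regulators had 10 of 22 (45.5%) higher and 0 lower, with a median of 0.56, and 1 was lower when either KD unstimulated array was left out. The subunit genes Nfkb2 (2.69 ± 0.25), Rel (0.95 ± 0.26), Relb (0.92 ± 0.26) and Rela (0.89 ± 0.17) rose, as did Traf1 (2.07 ± 0.22), Bcl3 (1.44 ± 0.22) and the kinase gene Ikbke, with 533.3 and 445.9 at 4 h and 146.9 and 195.5 at 1 h. Nfkb2 had 636.5 and 718 at 4 h and 112 and 91.4 at 1 h. The inhibitors Nfkbia, IκBα (-0.09 ± 0.09), and Tnfaip3, A20 (-0.35 ± 0.16), were not called and stayed bright, with Nfkbia at 6619.5 and 5881 at 4 h and 6238 and 7061 at 1 h. So did Nfkbiz (-0.05 ± 0.11).

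Toll-like receptor genes divided. Tlr4 itself fell by 0.85 ± 0.10, with 854 and 806 at 4 h and 1475 and 1519 at 1 h. Tlr1 (2.38 ± 0.14) and Tlr2 (1.40 ± 0.13), the receptor pair for bacterial lipopeptides, rose, with Tlr1 at 1026.5 and 982 at 4 h and 179.8 and 199 at 1 h. Of the 25 pathway genes, 10 (40%) were higher and 1 lower (2 without replicate 1 of the 1 h group), with a median of 0.32. The ubiquitin ligase gene Peli1 (2.25 ± 0.12), the inhibitory kinase gene Irak3 (1.30 ± 0.13), Irak2 (0.97 ± 0.16) and Myd88 (1.08 ± 0.17) rose, and Irak1 was not called (-0.21 ± 0.15). In antigen presentation and co-stimulation, 8 of 20 were higher and 1 lower (median 0.26). The members that rose included Cd40, Icosl (2.36 ± 0.16), Cd80 (1.79 ± 0.46), Cd69 (1.62 ± 0.15) and Icam1 (1.59 ± 0.11), and also Cd274, PD-L1 (0.75 ± 0.10). The change of Cd80 ran between 1.26 and 2.09 over the alternatives. Some other probe sets of Cd80 were not called, with -0.64 among them. The MHC genes H2-K1 (-0.10 ± 0.09), B2m (-0.08 ± 0.09) and H2-Ab1 (0.12 ± 0.34) were not called, and H2-DMa, which loads peptides on MHC class II, fell by 1.02 ± 0.24.

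Metabolic and stress lists held calls in both directions, beside 7.81% higher and 11.1% lower among all genes. For sterol and lipid genes the shares were 11.1% and 14.8%, near those of all genes. They were 9.52% and 19% for glycolysis and hypoxia genes, and 27.8% and 5.56% for stress response genes. Sterol synthesis and lipid handling had 3 higher and 4 lower of 27, with the desaturase gene Scd2 (1.77 ± 0.14) and Dhcr7 (1.72 ± 0.12), a late enzyme of cholesterol synthesis, among those that fell, and the cholesterol exporter gene Abca1 (0.76 ± 0.12) among those that rose. Without replicate 2 of the 4 h group 1 was higher. Dhcr7 had 211 and 219 at 4 h and 801 and 646 at 1 h. Glycolysis and hypoxia genes had 2 higher and 4 lower of 21, with 0 higher and 1 lower without replicate 2 of the 1 h group. The higher count was also 0 without replicate 2 of the 4 h group and 1 without replicate 1 of either group. The lower count was 2 without replicate 1 of the 4 h group, WT unstimulated replicate 2 or KD LPS 4 h replicate 2. Ldha (-0.08 ± 0.08) and Slc2a1 (-0.15 ± 0.10), the genes of lactate dehydrogenase and a glucose transporter, were not called. In the unfolded protein and integrated stress response, 5 of 18 rose and 1 fell, and the risers included targets of ATF4, namely Asns (1.24 ± 0.10), Chac1 (1.54 ± 0.26) and Trib3 (0.87 ± 0.17). The lower count was 0 without replicate 1 of the 4 h group or replicate 2 of the 1 h group. Asns had 1128 and 1153 without LPS, 701 and 760.5 at 1 h and 1734 and 1725 at 4 h, with the lowest pair at 1 h. Hspa5, the chaperone BiP, was not called (0.07 ± 0.13). Medians of the 3 lists were -0.08, -0.14 and -0.05, beside -0.119 over all genes. When arrays were scaled to the same median, the list medians became 0.04, -0.01 and 0.08. Of 14 ribosomal protein genes, 0 were called, and Rpl4 changed by -0.11 ± 0.09. Zinc finger genes named Zfp had 23 of 260 (8.85%) higher and 11 (4.23%) lower, and the largest change was Zfp811 (3.25 ± 0.39), with 260 and 264 at 4 h and 28 and 19.7 at 1 h.

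The same interval in KD macrophages shares no array with the WT comparison, so the changes of genes chosen in KD could be read in WT. The calls were not independent, because the fit to all arrays gave each gene a common variance for both strains. A gene with a small variance was therefore easier to call in both. In KD, 226 genes (1.75%) were called higher by at least 2-fold at 1 h of LPS against no LPS. Of these early genes, 43 (19%) were lower and 59 (26.1%) higher in WT at 4 h against 1 h, beside 11.1% and 7.81% of all genes. The median of the early genes was -0.11, close to the -0.119 of all genes. The early gene median was 0.10 without replicate 1 of the KD LPS 1 h group, where the early genes were chosen anew. It was 0.01 when arrays were scaled to the same median, where the median over all probe sets was 0.0393. Their median WT signals were 90.5 without LPS, 200 at 1 h and 194 at 4 h. The early genes therefore included genes that declined, held and went on rising in WT. The 260 late genes (2.01% of all) were those called higher by at least 2-fold at 4 h against 1 h in KD. Of these, 203 (78.1%) were called higher in WT and 1 lower, with a median of 1.42, and median WT signals of 127, 126 and 376. Fits on only the 6 arrays of each strain, which share no variance, chose 216 late genes, of which 185 were higher in WT. They chose 187 early genes, of which 44 were lower and 55 higher in WT. A set of 181 genes (1.40% of all) that fell at least 2-fold in KD, chosen after the data were seen, had 120 (66.3%) lower and 0 higher in WT, with a median of -1.33.

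In KD, 729 genes (5.65%) were higher and 623 (4.82%) lower at 4 h than at 1 h. A total of 541 genes were called higher in both strains, which is 74.2% of the KD calls and 53.6% of the WT calls. For genes called lower, 476 were shared, which is 76.4% of the KD calls and 33.2% of the WT calls. These shared counts rest on the common variance of each gene, so the calls of the strains were not independent. Over probe sets the KD count was 2354 (8.43%), and without a KD LPS array it was 1489 and 1299 (replicates 1 and 2 of 1 h) and 1220 and 1442 (replicates 1 and 2 of 4 h). The difference itself, the KD change minus the WT change, was called for 101 genes (0.782%), 55 higher (0.426%) and 46 lower (0.356%). Markers of other cells differed between the strains as well. The summed signal of 9 neutrophil and precursor markers, most of it from S100a8, was 1797 to 2054.6 at 4 h, 2026.8 to 2509.6 at 1 h and 1872.2 to 2019.6 without LPS in KD. In WT it was 877.8 to 987.3, 916.6 to 966.7 and 823.5 to 855.5 at those times. The sum of 15 stromal markers was 4813.6 to 4955.2 at 4 h, 3820.2 to 4988.6 at 1 h and 2591.2 to 3244.7 without LPS in KD, and 3957.7 to 4164 at 4 h, 4680.1 to 4764.2 at 1 h and 4778.8 to 4872.6 without LPS in WT. Their part in the differences between strains was not tested. Over probe sets the difference, KD change minus WT change, was called for 152 (0.544%), and for 1 without a trend in the variance prior. The probe set count was 94, 100, 40 and 73 probe sets without 1 WT LPS array (replicates 1 and 2 of 1 h, then of 4 h) and 59, 67, 45 and 75 without 1 KD LPS array in the same order.

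Fos had the lowest adjusted p for the difference. Its signals were 1416 and 1467 at 4 h and 2537 and 2914.5 at 1 h in KD, and 163 and 136 at 4 h and 3230 and 3558 at 1 h in WT, so it fell by 0.91 ± 0.12 in KD and by 4.47 ± 0.12 in WT. The difference was 3.56 ± 0.17 (limma adjusted p = 8.62e-10). Dusp5 and Egr1 showed no called difference, with changes of -0.05 ± 0.21 and 0.55 ± 0.23 between the strains. Of the 28 macrophage identity genes, 3 had a called difference, each with the higher change in KD. Mertk was not among them and fell by 1.59 ± 0.24 in KD and by 1.76 ± 0.24 in WT (difference 0.16 ± 0.34). Lpar6 had 330 and 366 at 4 h and 599.7 and 521 at 1 h in KD, a difference of 1.99 ± 0.19 from WT, and Cd300lb had 1237 and 1252.5 and 1516 and 1686, a difference of 2.03 ± 0.15. Both lay above the WT level of 4 h on each array.

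Among 25 cytokine genes, 4 had a called difference, each with the lower change in KD. Il6 had 106 and 88.6 at 4 h and 41.4 and 37.9 at 1 h in KD, a rise of 1.20 ± 0.35, and differed from WT by -3.79 ± 0.50 (limma adjusted p = 0.000948). Il1b had 328.5 and 412 at 4 h and 334 and 372 at 1 h in KD and was not called there (0.06 ± 0.18). Its difference from WT was -1.75 ± 0.26. Csf2 (-2.05 ± 0.53, adjusted p = 0.113), Il1a (-1.97 ± 0.63), Edn1 (-2.03 ± 0.83) and Il15 (-0.75 ± 0.28) had no called difference. Cxcl5 went the other way, with 718 and 598 at 4 h and 73.2 and 51.2 at 1 h in KD and a difference of 1.85 ± 0.30. Its KD signals were below the WT signals at both times. Among the 53 interferon-induced genes, 20 were higher at 4 h in KD, and 9 had a called difference, each with the lower change in KD. Ifit1 had 2244 and 2062 at 4 h and 555 and 490.2 at 1 h in KD, so the KD signals were higher than the WT signals at 1 h and lower than them at 4 h. Cd40 (-0.63 ± 0.22) and Adamts4 (-0.27 ± 0.34) had no called difference.

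**Figure D4:**
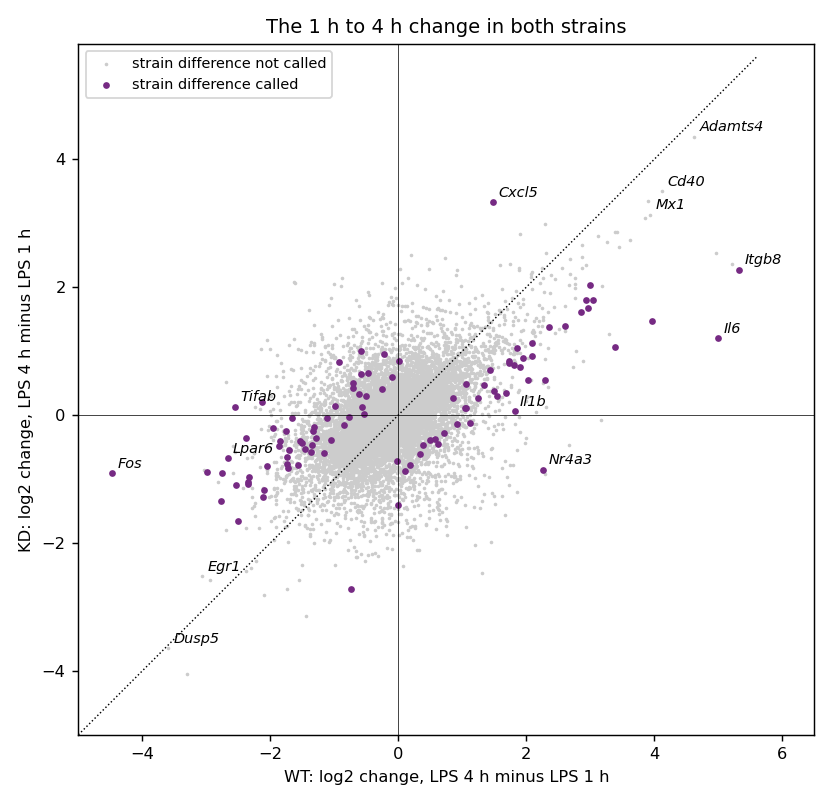
Log2 change from 1 h to 4 h of LPS for each tested gene, in KD on the vertical axis and in WT on the horizontal axis, with a dotted line of equal change and genes with a called difference in purple. Dusp5, Egr1, Adamts4, Cd40 and Mx1 lie near the line, Fos and Lpar6 lie above it at strong WT decreases, and Il6, Itgb8 and Il1b lie below it at strong WT increases.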

How the data were processed

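RNA from the 12 cultures was labelled with the NuGEN Ovation protocol and hybridised to Affymetrix arrays, per the labels. The authors deposited 1 linear intensity for each probe set and array. Per the submitters' processing notes it came from MAS5, whose version is not given in the sources used here. The trimmed mean of every array (2% off each end) was 150, so the intensities were used as deposited. Precision is limited by the number of arrays.

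Of 45101 probe sets, 64 controls were left out, and the 27931 that exceeded their array's median signal 2 or more times among 12 arrays were tested. GEO's platform annotation paired 34958 of the others with 1 symbol, 932 with several and 9160 with none, and only the first kind named genes. A gene took its brightest tested probe set, with identifiers that carry an _x_, _s_ or _a_ suffix set aside where possible (12914 genes). limma 3.58.1 in R 4.3.3 fitted log2(signal + 4.4), with 4.4 set at the 20th percentile of the deposited intensities, 6 group means on all 12 arrays and a variance prior with a trend on mean signal. The limma scripts were tested on simulated data. P-values were Benjamini-Hochberg adjusted within each comparison. The comparisons were 4 h minus 1 h of LPS in WT and in KD, and their difference.

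Genes named were the 15 with the largest change each way, up to 5 called members each way of 26 lists, 5 for each choice made in KD and 8 each way for the difference between strains. Others were chosen after their values were seen. The members and lists were chosen with earlier results of these data known. Alternatives were 2 scalings, 3 filters, 2 constants, 2 variance priors, fits on fewer arrays, the replicate number as a block, other probe sets and leaving out each array. The main fit did not pair arrays by replicate number. Correlations of same-numbered deviations lay between -0.049 and 0.034, which cannot show whether such arrays shared an animal or a preparation.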

Additional observations from a re-analysis of the deposited data

Results flagged for a closer look

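The 4 h minus 1 h change of 29 named genes differed between KD and WT by limma's test of the difference, KD change minus WT change. Among the genes whose WT decrease was smaller or not called in KD, Fos had a difference of 3.56, kept under 23 of 23 alternatives. The differences were 2.69 for Tifab, 2.33 for Nrg2, 2.10 for C130050O18Rik, 2.03 for Cd300lb, 1.99 for Lpar6, 1.86 for Susd3, 1.44 for Marchf1, 1.12 for Spry2, 1.09 for P2ry6, 0.92 for Dusp6, 0.89 for Dhcr7, 0.86 for Rgs2, 0.82 for Ccnd1 and 0.70 for Tlr4. Of these, Nrg2 lost its call under 13 of 22 alternatives, Tlr4 under 12 of 23 and Marchf1 under 11 of 23.

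Among the genes whose WT increase was smaller or not called in KD, the differences were -3.79 for Il6, -3.12 for Nr4a3, -3.05 for Itgb8, -2.49 for Foxp4, -2.33 for Trim36, -1.75 for Il1b, -1.75 for Lif, -1.29 for Ptges, -1.23 for Ifit2, -0.96 for Ifit1, -0.95 for Gadd45b and -0.59 for Spred1. Itgb8 lost its call under 14 of 23 alternatives and Lif under 12, whereas Il6 and Il1b lost theirs under 1. Tnfsf9 fell more in KD, with a difference of -1.97, and Cxcl5 rose more in KD, with a difference of 1.85.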

How the results depend on the processing

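The groups of 2 arrays limit every comparison, and weak probe sets near the constant limit the sizes. Of 150 named genes that were called, 109 kept the call in all 12 fits that left out 1 array, 113 under every other alternative and 106 under all. These counts of kept calls do not cover other probe sets, and a gene was not counted as lost in a fit whose filter removed it. Some genes that kept every call, Rasgrp1 and Hivep3 among them, were not called on other probe sets. Without a trend in the variance prior, 2732 probe sets were called in WT, 960 in KD and 1 for the difference, and 28 early genes chosen in KD were lower in WT, where that setting chose 150 early genes. Leaving out 1 array gave 2741 to 4741 calls in WT, 1220 to 2647 in KD and 40 to 181 for the difference, 30 to 49 early genes lower, 168 to 212 late genes higher and 174 to 227 list members called. The early and late choices were not run on the 4 arrays alone, nor the difference on the arrays of 1 strain. Whether same-numbered arrays share more than a number is not known. With the replicate block, 4146 probe sets were called in WT, 2154 in KD and 109 for the difference, with 40 early genes, 199 late genes and 219 list members. The median of the early genes turned from -0.11 to 0.10 without KD LPS 1 h replicate 1. It became 0.01 with arrays scaled to the same median. That scaling also turned the median over all probe sets (to 0.0393), some list medians and the balance of calls. The direction of single named genes turned on other probe sets, in 22 cases of which 1 was called (Samhd1, 2.23), and the cause was not tested. They were Rasgrp1 (-0.62 and -0.16), Hivep3 (-0.46 and -1.82), Dtl (0.034), Marchf1 (0.23), Nr4a3 (-0.99), Rc3h2 (-0.21), Dcp1a (-0.12), Btg1 (0.04), Samhd1 (0.16 as well), Trim25 (1.09), Cd80 (-0.64), Ccna2 (0.13), Ccnd2 (-0.22 and -0.033), Hk3 (0.10), Zfp950 (-0.065), Zfp420 (-0.088), Zfp618 (0.51) and Zfp398 (0.082).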

Other observations

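Of 5946 genes with 2 or more tested probe sets, 1982 had at least 1 called in WT at 4 h against 1 h. In 325 all were called in 1 direction, in 1640 the called ones shared a direction while others were not called, and in 17 they were called in opposite directions. The examples here were chosen after their values were seen. Cflar, an inhibitor of caspase-8, was higher on 3 probe sets (1.33 ± 0.12, 1.61 ± 0.18 and 1.36 ± 0.15), lower on a dim one (-0.85 ± 0.26) and not called on the brightest (0.24 ± 0.10). Nrp1, a receptor for semaphorins and VEGF, was lower on 3 probe sets, one of them with signals of 1351.8 and 1477.9 at 4 h and 2876.7 and 2881.5 at 1 h, and higher on a dim one (1.27 ± 0.39). Itga5, an integrin chain, was higher on a bright probe set (0.51 ± 0.10) and lower on a dim one (-0.96 ± 0.31).

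A total of 4 genes were called in opposite directions in the strains between 1 h and 4 h. The non-coding RNA gene Zfas1 rose by 1.01 ± 0.12 in KD and fell by 0.59 ± 0.12 in WT, and Pou2f2, which encodes the transcription factor OCT2, rose by 0.83 ± 0.20 in KD and fell by 0.93 ± 0.20 in WT. Ap3m2, an adaptor of vesicle transport, rose by 0.64 ± 0.19 in KD and fell by 0.58 ± 0.19 in WT. Rhob, a small GTPase, fell by 0.47 ± 0.12 in KD and rose by 0.39 ± 0.12 in WT.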
